A study of Mus musculus with 6 samples.

Results

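This account is about the transcripts of 6 genes of major histocompatibility complex (MHC) class II presentation in sorted mouse thymocytes: Cd74, H2-Aa, H2-Ab1, H2-Eb1, H2-DMa and Ciita. They are 6 of the 18193 genes with at least 1 probe set that the platform annotation ties to just 1 symbol, and all 14 of their probe sets are given. The genes were taken by name, but selected on the intensities of these same arrays, whose results were known, so their levels and the differences between stages are given as a description and carry no test. Expression was measured on 6 microarrays, 2 at each of 3 stages: double-positive (DP) cells, CD4intCD8+ cells, which carry less CD4 at the surface, and single-positive CD8 (CD8SP) cells. All groups came from mice of 5 to 6 weeks of age that were N15 TCR tg+/+, RAG-2-/- and H-2b, so that every thymocyte carries the transgenic receptor, no endogenous receptor genes are assembled, and the animals lack B cells that have completed development. Cells came from 6 mice in a pair of separate experiments and were sorted on CD4 and CD8; the labels name no antibody that would remove class II-bearing cells. Which animals gave which array is not given, and any spread between 2 arrays of a stage may be technical. In bulk samples like these, fewer cells of a type and less RNA per cell cannot be told apart.

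Class II molecules are heterodimers that show peptides from endosomes to CD4 T cells. H2-Aa and H2-Ab1 encode the chains of I-A, H2-Eb1 the beta chain of I-E, Cd74 the invariant chain that fills the groove until the endosome, H2-DMa a chain of the DM exchange factor that loads peptide, and Ciita the coactivator on which transcription of the others depends. Dendritic cells, B cells, macrophages and thymic epithelium are the known producers in mice, whereas mouse T cells generally keep Ciita silent. In mice of the H-2b haplotype the E alpha gene is defective, so that no I-E is made at the surface.

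The sequences before the start sites are shown first because class II genes share a promoter layout: an X box, bound by the RFX complex, stands before a Y box, bound by NF-Y, and CIITA docks on the complex formed there. RefSeq promoter windows (GRCm38.p6) were matched for 3 of the 6 genes, and the 250 bases before the annotated start are printed for the pair of I-A and I-E chain genes, in lower case with the X box core GCAAC and the Y box CTGATTGG in capitals. The H2-Aa window is chr17:34287824-34288073 on the minus strand and the H2-Eb1 window is chr17:34305617-34305866 on the plus strand.
H2-Aa: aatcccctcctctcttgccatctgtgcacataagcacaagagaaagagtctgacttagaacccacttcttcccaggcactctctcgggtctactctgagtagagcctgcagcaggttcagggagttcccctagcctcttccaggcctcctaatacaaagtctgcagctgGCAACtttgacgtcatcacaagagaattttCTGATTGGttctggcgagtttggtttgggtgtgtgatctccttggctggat
H2-Eb1: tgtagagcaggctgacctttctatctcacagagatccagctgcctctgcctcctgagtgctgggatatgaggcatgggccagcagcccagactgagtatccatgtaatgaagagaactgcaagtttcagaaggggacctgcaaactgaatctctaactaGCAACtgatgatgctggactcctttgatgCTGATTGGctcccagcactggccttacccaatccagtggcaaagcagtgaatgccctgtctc

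The motif letters were chosen after these windows had been read, and each was searched on both strands; they do not overlap each other. In H2-Aa the X box core began 81 bases and the Y box 51 bases before the start, with 25 bases between them, and in H2-Eb1 they began 91 and 62 bases before the start, with 24 bases between them. Among 32851 windows of the same length, 29.9% held GCAAC, 3.83% held CTGATTGG, and 0.116% (38 windows) held GCAAC followed by CTGATTGG on the same strand with 10 to 40 bases between them. Since the letters came from the windows of H2-Aa and H2-Eb1, nothing is read from their match. Most other genes with such a pair were not class II genes, such as Abcb1b, Fth1 and Mark3. They also included H2-Oa, the alpha chain of the DO modulator, and H2-Eb2, an E beta-like gene, whose levels are given further on. Neither of the 2 windows of H2-DMa held the pair; 1 of them held GCAAC, read on the other strand, and the other held neither motif. A match is a description of letters, not of binding. In the RefSeq table H2-Ab1, H2-Aa and H2-Eb1 are immediate neighbours, with 0 genes listed between them, and 8 genes stand between H2-DMa and H2-Ab1.

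**Figure D1:**
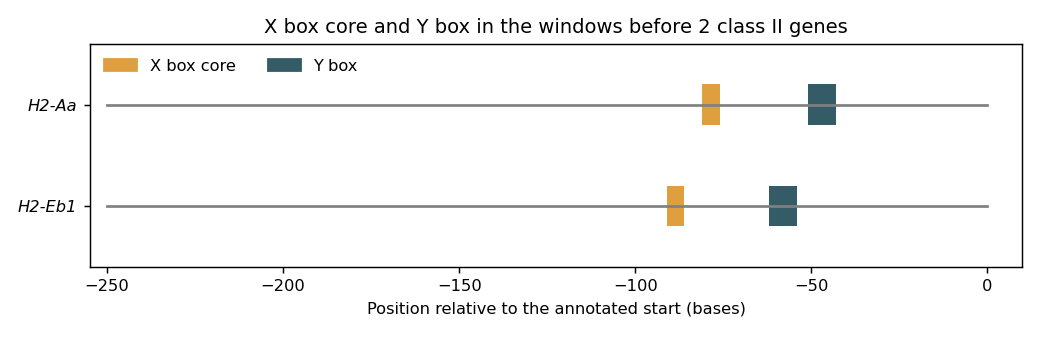
Position of the X box core and the Y box in the 250 bases before the annotated start of H2-Aa and H2-Eb1; the horizontal axis gives bases relative to the start. In both windows the X box core stands before the Y box, beginning at 81 and 91 bases before the start, with 25 and 24 bases between the boxes.

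The class II chains and the invariant chain gave low signals in DP cells and higher ones at each later stage, while Ciita showed no such order. Between DP and CD8SP cells the mean intensity of the leading probe set was 4.03 times as high in CD8SP for Cd74, 3.81 times for H2-Ab1, 5.09 times for H2-Eb1, 2.38 times for H2-Aa and 1.72 times for H2-DMa. Intensity is the deposited linear value, from which background had been subtracted, with array medians between 24.9 and 25.7 over all probe sets. Genes whose mean lay below the 40th percentile, an intensity of 30.8, were treated as dim and not tested; 5 of the 6 genes passed this filter, and Ciita did not. Passing it can rest on the later stages alone, so counts over those 5 genes support nothing.

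Cd74, the invariant chain gene, read 29.5 and 33.1 in DP cells (replicates 1 and 2), 88.8 and 100.1 in CD4intCD8+ cells and 109.5 and 143 in CD8SP cells. The stages did not overlap, and the step to CD4intCD8+ was the larger one. On the scale of log2(intensity + 5.84), which understates changes of dim genes, the CD4intCD8+ minus DP difference was 1.43 ± 0.19 (SE, n = 2 arrays each) and the CD8SP minus CD4intCD8+ difference 0.39 ± 0.19. The first step was alike within both replicate numbers, 1.42 between the arrays numbered 1 and 1.44 between those numbered 2. That arrays of the same number come from the same experiment is an assumption.

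H2-Ab1, the I-A beta chain, read 38.0 and 43.8 in DP cells, 80.3 and 118 in CD4intCD8+ cells and 108 and 203 in CD8SP cells on its leading probe set. Both later stages lay above DP, but they overlapped each other, and replicate 2 was the higher array at each stage. The log2 difference was 1.15 ± 0.28 for CD4intCD8+ minus DP and 1.73 ± 0.28 for CD8SP minus DP. H2-Aa, the I-A alpha chain, read 49.9 and 40.2 in DP cells, 68.0 and 85.0 in CD4intCD8+ cells and 78.8 and 136 in CD8SP cells. It showed the same order of stages with a smaller span, 0.69 ± 0.25 for CD4intCD8+ minus DP and 1.11 ± 0.25 for CD8SP minus DP, and again CD8SP overlapped CD4intCD8+.

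H2-Eb1, the I-E beta chain, was the dimmest of the genes that passed the filter, with 17.7 and 15.6 in DP cells, 33.5 and 39.7 in CD4intCD8+ cells and 60.03 and 109.5 in CD8SP cells. Its 3 stages did not overlap, and it differed by similar log2 amounts at each step, 0.91 ± 0.28 and 1.04 ± 0.28. H2-DMa, of the peptide exchange factor, read 53.8 and 53.5 in DP cells, 91.1 and 71.3 in CD4intCD8+ cells and 98.9 and 85.6 in CD8SP cells. The 2 DP arrays were nearly equal and lay below the other 4. Its log2 differences were 0.54 ± 0.18 for CD4intCD8+ minus DP and 0.72 ± 0.18 for CD8SP minus DP, and unlike the chain genes it was lower on replicate 2 at both later stages.

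Ciita, the coactivator, stayed near the array medians on all 3 of its probe sets, with values from 7.28 to 41.1. Its leading probe set read 32.1 and 37.1 in DP cells, 41.1 and 9.13 in CD4intCD8+ cells and 15.9 and 30.1 in CD8SP cells. The 2 CD4intCD8+ arrays spanned all the other values, but both CD8SP values lay under both DP values. CD8SP was lower than DP within each replicate number (-0.81 and -0.26). Another Ciita set likewise read 24.1 and 29.1 in DP cells and 13.9 and 7.28 in CD8SP cells, with 11.4 and 30.4 in CD4intCD8+ cells, while the remaining one overlapped at all stages. The CD8SP minus DP log2 difference was -0.53 ± 0.47, and it was -0.03 once the actin ratio described further on entered the fit. At these dim signals the differences of Ciita were about as large as their errors, which does not show that no change was present.

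**Figure D2:**
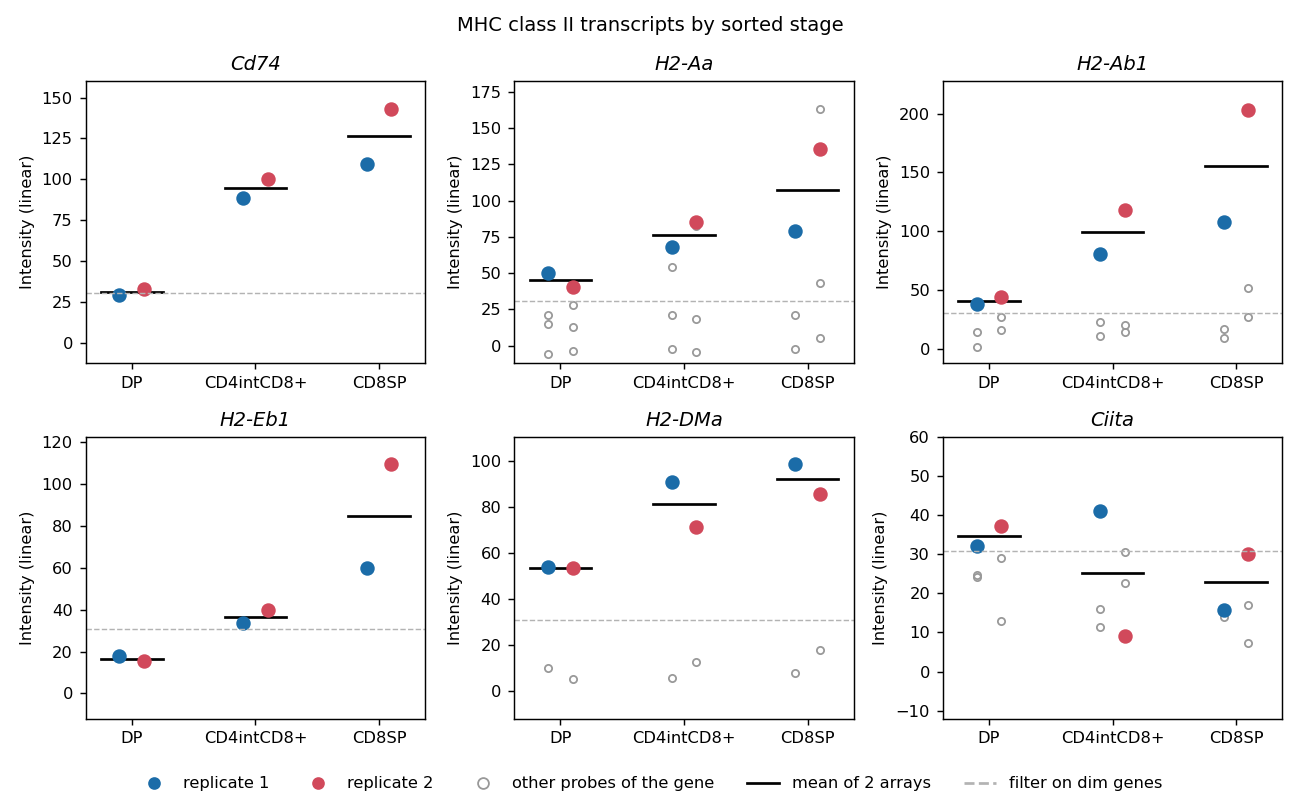
Linear intensity (vertical axis) of the 6 class II genes on the 2 arrays of each stage (horizontal axis), with filled points for the leading probe set, open points for other probe sets of the gene, black bars for the mean of 2 arrays and a dashed line at the filter on dim genes, 30.8. All CD8SP points of the leading probe sets lie above the DP points for the 5 genes other than Ciita, and CD8SP replicate 2 is the highest array for Cd74, H2-Aa, H2-Ab1 and H2-Eb1. The genes were selected on these arrays, so nothing is read from this order.

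Probe sets of one gene did not read alike. The names of the leading H2-Aa set and of a further one mark both as open to cross-hybridisation. That of the leading H2-Ab1 set marks it as shared between transcripts. The further H2-Aa set moved more than the leading one. It read 21.1 and 27.8 in DP cells, 54.1 and 82.2 in CD4intCD8+ cells and 79.8 and 163 in CD8SP cells. A set of H2-Aa shared between transcripts read 15.0 and 12.9 in DP cells, 21.1 and 18.6 in CD4intCD8+ cells and 21.2 and 43.0 in CD8SP cells, and another lay between -5.79 and 5.51 on all arrays. For H2-Ab1, the 2 other sets read between 1.68 and 52.0, and each had overlapping stages. The second H2-DMa set stayed between 5.15 and 18.01. Over all 14 probe sets, the CD8SP arrays lay above both DP arrays for 8, the CD4intCD8+ arrays lay above both DP arrays for 7, and the CD8SP arrays lay above both CD4intCD8+ arrays for 3; 5 sets stayed under an intensity of 30.8 on every array. Among the 10916 genes tested, 32.4%, 30.8% and 20.2% were higher without overlap in these comparisons; since the genes were listed with the arrays known, nothing is read from this. With the mean of all probe sets of a gene, the CD8SP minus DP difference of H2-Ab1 was 1.02, against 1.73 for its leading set. Its CD4intCD8+ minus DP difference was 0.59 in place of 1.15, and that of H2-DMa 0.35 in place of 0.54.

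Of the 6 leading probe sets, 4 had their highest value on CD8SP replicate 2, as did 10 of all 14 probe sets; over the leading probe sets of all tested genes the share was 18.8%, from which nothing is read, since the genes were selected on these arrays. The ratio of CD8SP replicate 2 to replicate 1 was 1.88 for H2-Ab1, 1.82 for H2-Eb1, 1.72 for H2-Aa, 1.30 for Cd74 and 0.866 for H2-DMa. Without CD8SP replicate 2 the CD8SP minus CD4intCD8+ difference became 0.20 for Cd74, 0.05 for H2-Aa, 0.14 for H2-Ab1, 0.64 for H2-Eb1 and 0.28 for H2-DMa, against 0.39, 0.42, 0.58, 1.04 and 0.18 with it. Between the arrays numbered 1 alone, which also leaves that array out, the step was 0.20 for H2-Aa and 0.40 for H2-Ab1, so that its size without the array depends on which CD4intCD8+ arrays it is set against. The CD8SP minus DP difference without that array was 1.64 for Cd74, 1.29 for H2-Ab1, 1.55 for H2-Eb1, 0.74 for H2-Aa and 0.82 for H2-DMa.

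RNA quality differed between arrays as well. The ratio of the 3' to the 5' actin control, a measure of degraded RNA, stood at 1.98 and 2.14 in DP cells, 2.37 and 3.47 in CD4intCD8+ cells and 2.28 and 2.62 in CD8SP cells, so that CD4intCD8+ replicate 2 stood apart. With this ratio as a covariate, the CD4intCD8+ minus DP difference was 1.19 for Cd74, 0.50 for H2-Ab1, 0.56 for H2-Eb1, 0.32 for H2-Aa and 0.83 for H2-DMa. The CD8SP minus DP differences moved less, to 1.70, 1.40, 1.77, 0.92 and 0.87 in the same order of genes. Within each replicate number taken alone, the CD8SP minus DP difference of these 5 genes was above 0. It ran from 0.60 (H2-Aa) to 1.71 (Cd74) between the arrays numbered 1 and from 0.62 (H2-DMa) to 2.43 (H2-Eb1) between those numbered 2. The genes were selected on these arrays and can pass the filter through the later stages, so nothing is read from these signs.

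**Figure D3:**
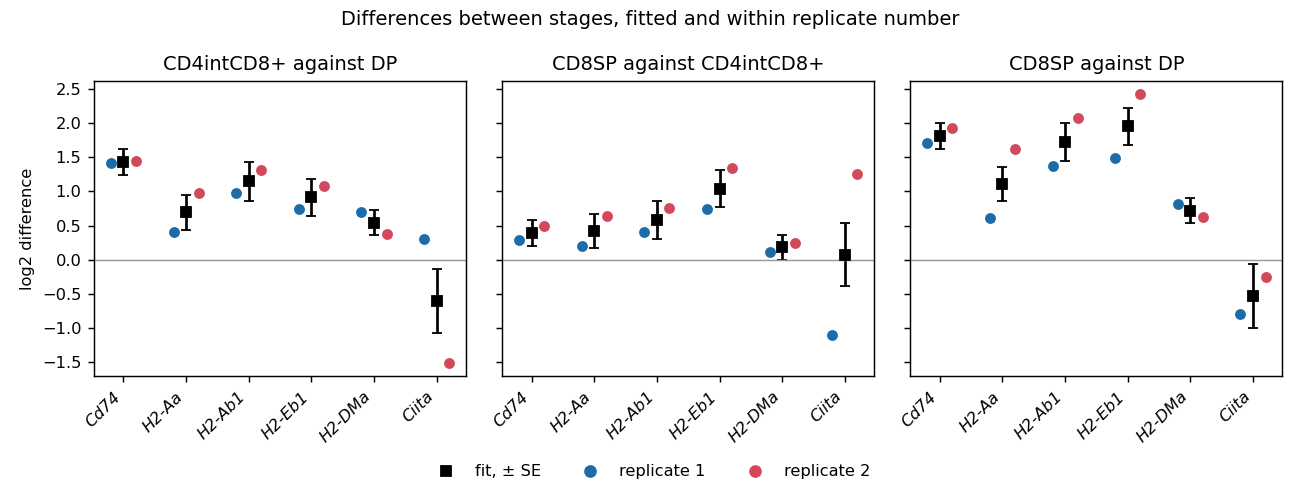
Log2 differences between stages (vertical axis) for the 6 genes (horizontal axis) in each of the 3 comparisons; black squares are fitted values with bars of ± 1 SE (n = 2 arrays per stage), and the coloured points are the differences within replicate number 1 and within number 2. The differences of Cd74, H2-Aa, H2-Ab1, H2-Eb1 and H2-DMa lie above 0 within both replicate numbers. Those of Ciita for CD4intCD8+ against DP and for CD8SP against CD4intCD8+ point opposite ways in the 2 numbers. The genes were selected on these arrays, so nothing is read from the signs.

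The genes varied together to different degrees. Likeness was measured as the root mean square difference of log2 values over the 6 arrays after each gene's own mean was subtracted, a description that rests on arrays in 3 stages. H2-Ab1 stood closest to Cd74 (0.22) and H2-Eb1 (0.23), and H2-DMa was farthest from H2-Eb1 (0.62). Among the 10915 other tested genes, H2-Ab1 was the 4th nearest to H2-Eb1, and Cd74 the 12th nearest to H2-Ab1. H2-DMa ranked 873 from Cd74, 1060 from H2-Eb1, 1298 from H2-Ab1 and 1467 from H2-Aa, and these 4 genes ranked between 5508 and 10190 from H2-DMa, which has many genes near it. The nearest genes to Cd74 were Rrp12 (0.09), Slc35g1, Lap3 and Aven (0.11), and those to H2-Ab1 were Acaca (0.11), Cad, Snhg4 and Vars (0.17). H2-Aa was closest to Eef1aknmt (0.09), Mcrip2, Heatr1 and Macrod1 (0.10). H2-Eb1 was closest to Naaa (0.21), Ms4a4c and Srm (0.21), ahead of H2-Ab1. H2-DMa was closest to Pde3b (0.05), Lta, Cln3 and Atraid (0.07). The mean profile of the 5 genes was closest to Shmt2 (0.08), Utp20, Rangrf and Tpi1 (0.10). H2-Ab1 itself ranked only 35th from Cd74, so that other genes followed the course of Cd74 more closely.

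Other genes of class II loading did not follow the chain genes as a group, apart from cathepsin S and Ifi30. These genes were not members of the set and were tested in limma's fit across all 10916 genes with Benjamini-Hochberg adjustment. Of the 10 that passed the filter, 1 rose and 1 fell in CD4intCD8+ against DP, and 2 rose and 1 fell in CD8SP against DP, where 11.7% (6.86% higher and 4.84% lower) and 19.8% (11.5% higher and 8.35% lower) of all tested genes were called, and 23.5% and 30% with the replicate number as a block. Their median log2 difference was -0.21 and -0.23, against 0.01 and 0.01 over all tested genes. In CD8SP against CD4intCD8+ 0 of the 10 were called by limma, 2 had an unadjusted p under 0.05 and 2 were called with the block, where 0.119% of all tested genes were called (0.101% higher and 0.0183% lower; 2.08% with the block).

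Ctss, the endosomal protease that trims the invariant chain in dendritic cells and B cells, read 161 and 97.1 in DP cells, 548 and 392 in CD4intCD8+ cells and 1058 and 829.8 in CD8SP cells. Its stages did not overlap, and replicate 1 was higher at each of them, unlike H2-Ab1. It rose by 1.84 ± 0.24 in CD4intCD8+ against DP (adjusted p = 0.00432) and by 2.85 ± 0.24 in CD8SP against DP (adjusted p = 0.000187, limma). The CD8SP minus CD4intCD8+ difference of 1.01 ± 0.24 had an adjusted p of 0.193, and 0.00398 with the block. Ctsl, the protease that does this work in cortical thymic epithelium, ran the other way, with 783 and 865 in DP cells, 269 and 316 in CD4intCD8+ cells and 179.5 and 186 in CD8SP cells. It fell by 1.48 ± 0.13 in CD4intCD8+ against DP (limma adjusted p = 0.00109) and by 2.13 ± 0.13 in CD8SP against DP (adjusted p = 4.43e-05). With the mean of its 2 probe sets the first fall was 0.86 in size and lost its call (adjusted p = 0.0531). The step to CD8SP, -0.65 ± 0.13, had an adjusted p of 0.12, and 0.015 with the block.

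Ifi30, a thiol reductase that opens disulfide bonds of antigens in the endosome, read 91.2 and 83.1 in DP cells, 113 and 156 in CD4intCD8+ cells and 138 and 176 in CD8SP cells. It rose by 0.80 ± 0.19 in CD8SP against DP (limma adjusted p = 0.019), a call lost without DP replicate 1 (0.075), DP replicate 2 (0.11) or CD8SP replicate 2 (0.125). Against DP, CD4intCD8+ differed by 0.58 ± 0.19 (adjusted p = 0.0813, and 0.0256 with the block). Of the DM beta chain genes, H2-DMb1 was listed but had no probe set tied to just 1 symbol. The leading set of H2-DMb2, 1 of 3, has a name that marks it as open to cross-hybridisation. It read 99.1 and 83.8 in DP cells, 100.3 and 77.5 in CD4intCD8+ cells and 90.9 and 106 in CD8SP cells. Its stages overlapped, with a CD8SP minus DP difference of 0.10 ± 0.18 (limma adjusted p = 0.739). H2-Oa likewise overlapped, at 192 and 182 in DP cells, 210.4 and 149.9 in CD4intCD8+ cells and 229 and 188 in CD8SP cells (CD8SP minus DP 0.14 ± 0.18, limma adjusted p = 0.628). H2-Eb2, which like H2-Oa has the letters of the box pair before its start, averaged 66.5 ± 3.79 in DP cells, 53.5 ± 11.4 in CD4intCD8+ cells and 45.7 ± 2.58 in CD8SP cells (SD, n = 2). H2-Ea, which RefSeq lists as a transcribed pseudogene, had 164 and 118 in DP cells, 136 and 105 in CD4intCD8+ cells and 124 and 94.3 in CD8SP cells on its leading probe set. Ctsb, a lysosomal cysteine protease, averaged 1052 ± 25.7, 850.3 ± 38.9 and 826 ± 118 at the 3 stages (CD8SP minus DP -0.35 ± 0.12, limma adjusted p = 0.0707, 0.0229 with the block and 0.0386 without CD8SP replicate 1). The costimulatory genes Cd40, Cd80 and Cd86 lay under the filter, with values from 8.98 to 33.7.

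Genes of class II transcription other than Ciita were called lower more often than higher in CD8SP against DP. Of 13 tested, 0 rose and 2 fell in CD4intCD8+ against DP by limma (15.4% called), and 5 had an unadjusted p under 0.05. This share lay near that of all tested genes called there, 11.7% (6.86% higher and 4.84% lower), and nothing is read from it. With the block 1 rose and 2 fell, where 23.5% of all tested genes were called. In CD8SP against DP 1 rose and 4 fell (38.5% called, against 19.8% of all tested genes, 11.5% higher and 8.35% lower). An unadjusted p under 0.05 was found for 10, and with the block 1 rose and 8 fell (against 30% of all tested genes called). The median difference was -0.39, against 0.01 over all tested genes. The calls in CD8SP against DP numbered 1 without DP replicate 2, 2 without DP replicate 1, CD8SP replicate 1 or CD8SP replicate 2, and 7 without CD4intCD8+ replicate 2. Those in CD4intCD8+ against DP numbered 0 without DP replicate 1, DP replicate 2 or CD4intCD8+ replicate 2, and 1 without CD8SP replicate 1 or CD8SP replicate 2. Nlrc5, the relative of Ciita that drives class I genes, was the one that rose, with 82.6 and 36.3 in DP cells, 127 and 79.2 in CD4intCD8+ cells and 199 and 177 in CD8SP cells. The CD8SP arrays lay above all others, and CD8SP differed from DP by 1.66 ± 0.33 (limma adjusted p = 0.00819). CD4intCD8+ minus DP was 0.80 ± 0.33 (adjusted p = 0.144, 0.0148 with the block and 0.0427 with the actin ratio in the fit). Rfxank, a subunit of the RFX complex of the X box, read 91.3 and 117 in DP cells, 66.5 and 54.4 in CD4intCD8+ cells and 62.7 and 60.3 in CD8SP cells. It fell by 0.73 ± 0.18 in CD4intCD8+ against DP (adjusted p = 0.0341) and by 0.70 ± 0.18 in CD8SP against DP (adjusted p = 0.027). The first call was lost without DP replicate 1, DP replicate 2 or CD4intCD8+ replicate 2 (adjusted p = 0.0765, 0.192 and 0.162), the second without DP replicate 2, CD8SP replicate 1 or CD8SP replicate 2 (0.178, 0.0746 and 0.113), and both with the mean of its 3 probe sets (0.20 and 0.0679) or with the actin ratio (0.308 and 0.0509).

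The other RFX subunit genes were not called. Rfx5 averaged 83.8 ± 5.46 in DP cells, 84.5 ± 7.69 in CD4intCD8+ cells and 65.0 ± 1.99 in CD8SP cells, and Rfxap 212 ± 8.94, 205 ± 21.9 and 210.3 ± 27.8 (SD, n = 2). The NF-Y subunit gene Nfyc fell by 0.43 ± 0.12 in CD8SP against DP (limma adjusted p = 0.0393), a call lost without DP replicate 1, DP replicate 2 or CD8SP replicate 1 (0.138, 0.142 and 0.192) or with no intensity trend (0.0782). The acetyltransferase genes Crebbp (-0.45 ± 0.12, adjusted p = 0.0333) and Kat2b (-0.59 ± 0.14, adjusted p = 0.0182) fell in the same comparison. Both calls were lost without DP replicate 1 (0.0869 and 0.106), DP replicate 2 (0.162 and 0.0701) or CD8SP replicate 2 (0.128 and 0.119), and that of Crebbp without CD8SP replicate 1 (0.0952). They were also lost with the mean of all probe sets (Crebbp -0.26, 0.356; Kat2b -0.49, 0.247), and that of Crebbp with the actin ratio (0.0805) or no intensity trend (0.0645). Ep300 fell in CD4intCD8+ against DP by 0.63 ± 0.17 (adjusted p = 0.0468), a call lost without any 1 array other than CD4intCD8+ replicate 1 (from 0.0544 to 0.266). With the actin ratio the Ep300 difference was -0.27 (adjusted p = 0.58), and the call was also lost with no filter (0.0609), the mean of all probe sets (0.0604), no intensity trend (0.0742) or only the 4 arrays compared (0.0534). In CD8SP against DP, Ep300 differed by -0.49 (limma adjusted p = 0.0773, and 0.0133 with the block). Prdm1, a repressor of Ciita in plasma cells, lay between 9.49 and 16.5 on all arrays.

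Interferon gamma is the classical inducer of Ciita. Of 8 tested genes of its path, 0 rose and 2 fell in CD4intCD8+ against DP and likewise in CD8SP against DP by limma. These 25% called stand beside 11.7% and 19.8% of all tested genes. The median log2 difference of the 8 was -0.05 and 0.07, against 0.01 and 0.01 over all tested genes. An unadjusted p under 0.05 was found for 2 and 4. With the block 0 and 2 rose, where 23.5% and 30% of all tested genes were called. The falls were those of the receptor chain Ifngr1, with 1223 and 1176 in DP cells, 477 and 490.0 in CD4intCD8+ cells and 364 and 419 in CD8SP cells, and of the inhibitor Socs1, with 125 and 95.9, 44.6 and 35.5, and 49.5 and 43.0. The CD8SP minus DP difference was -1.60 ± 0.12 for Ifngr1 (limma adjusted p = 8.86e-05) and -1.15 ± 0.20 for Socs1 (0.00443, and 0.052 without DP replicate 1). Without that array the call of Socs1 in CD4intCD8+ against DP (-1.34 ± 0.20, limma adjusted p = 0.00617) was lost too (0.0572), as it was with the actin ratio (0.0595). Irf1, an interferon-induced factor that acts on the Ciita gene, differed by 0.42 ± 0.15 between CD8SP and DP (adjusted p = 0.077, and 0.0187 with the block). Ifng itself lay between -2.03 and 12.1 on all arrays.

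**Figure D4:**
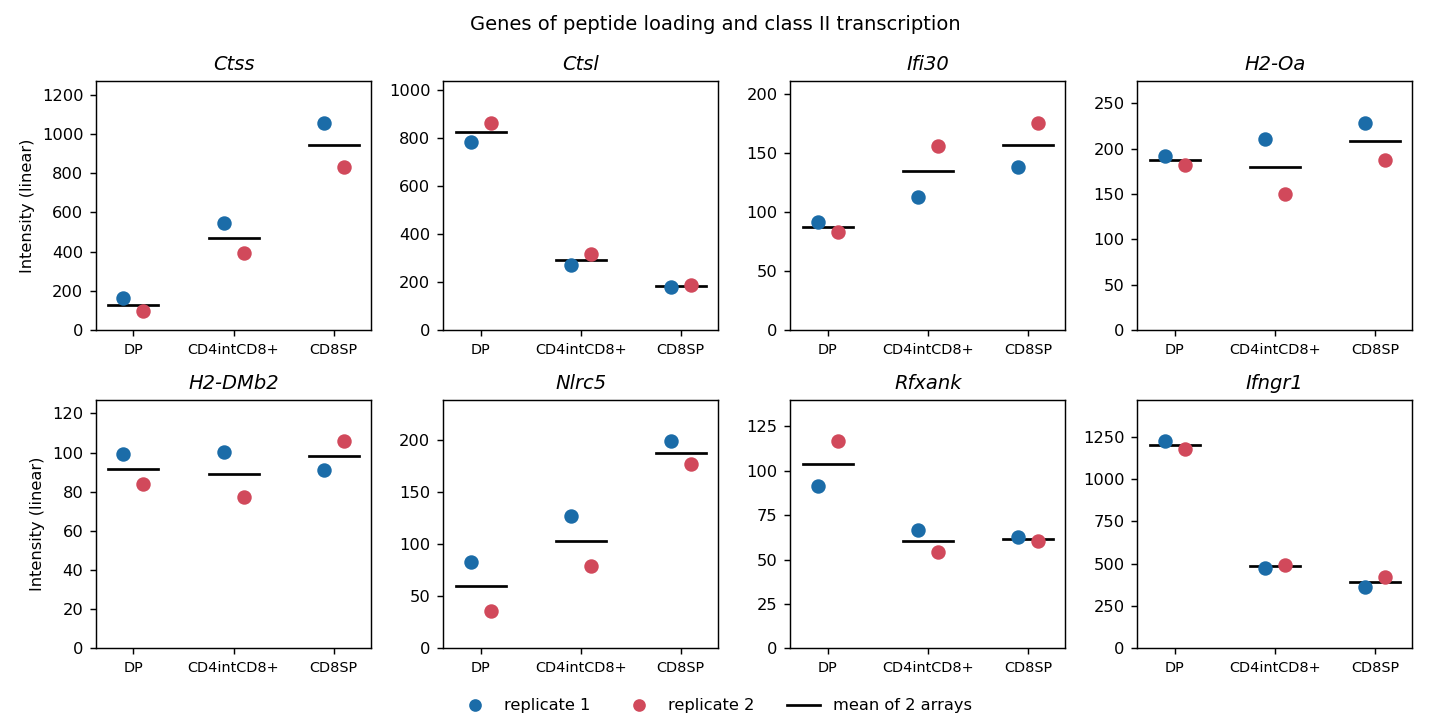
Linear intensity (vertical axis, from 0) of 8 genes of peptide loading, class II and class I transcription and interferon gamma reception on the 2 arrays of each stage (horizontal axis); black bars are means of 2 arrays. Ctss is higher and Ctsl and Ifngr1 are lower at each later stage, Nlrc5 is highest in CD8SP, and H2-Oa and H2-DMb2 overlap between stages.

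Class I presentation genes are set beside the class II genes because H2-K1 and H2-D1 lie in the same complex. In CD8SP against DP 8 of 13 rose and 1, Tap2, fell, at the same background of 19.8% called; with the block 10 rose and 1 fell, and there were 4 calls without CD8SP replicate 1 or CD8SP replicate 2 and 5 without DP replicate 1 or DP replicate 2. The call of Tap2 (limma adjusted p = 0.0372) was lost without any 1 array (from 0.0547 to 0.149), with no intensity trend (0.0782), with only the 4 arrays compared (0.053) and with the actin ratio (0.0604). H2-K1 differed by 1.19 ± 0.17 (limma adjusted p = 0.00194) and H2-D1 by 1.08 ± 0.18 (0.00392). With the mean of its probe sets H2-K1 differed by 2.02. In CD8SP against CD4intCD8+ both differed by 0.73 and were called with the block alone (0.178 and 0.025 for H2-K1, 0.202 and 0.0226 for H2-D1, without and with it); these genes are near-identical in sequence, and their probe sets may share signal. H2-D1 read 1997 and 2017 on the CD8SP arrays, so that the spread between CD8SP replicates seen in the class II chains was not shared by it.

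Markers of the cells known to make class II gave signals that differed from gene to gene. The summed intensity of 11 B cell markers was 551 and 599 in DP cells, 633 and 554 in CD4intCD8+ cells and 724 and 713 in CD8SP cells. Of these genes 4 stayed under 30.8 on every array, among them Cd79a (between 9.48 and 15.8), Pax5 (between 15.6 and 29.9) and Ebf1 (between 0.709 and 15.5). Others were brighter: Ms4a1, which encodes CD20, lay between 27.3 and 127 and Cd22 between 68.7 and 107, and limma called neither between stages. The lowest Ms4a1 value was that of CD4intCD8+ replicate 2, and without CD4intCD8+ replicate 1 Ms4a1 was called lower in CD4intCD8+ against DP (-1.78, adjusted p = 0.00127), while Cd22 was called higher in CD8SP against DP with the actin ratio (0.64, adjusted p = 0.027). Of the 7 tested, Igll1 and Cd79b rose and Vpreb1 fell in CD8SP against DP, where 11.5% of all tested genes rose and 8.35% fell. Cd79b read 31.9 and 34.9 in DP cells, 37.3 and 30.9 in CD4intCD8+ cells and 68.5 and 66.0 in CD8SP cells (CD8SP minus DP 0.90 ± 0.19, limma adjusted p = 0.0118). That call was lost without DP replicate 1, DP replicate 2, CD8SP replicate 1 or CD8SP replicate 2 (0.0777, 0.0558, 0.0561 and 0.056). Igll1, a surrogate light chain gene of early B cells, differed by 0.77 ± 0.16 (0.0104, lost without DP replicate 2 at 0.0744 or CD8SP replicate 2 at 0.0785, and with the mean of its probe sets at 0.0755), and Vpreb1, its partner, by -1.37 ± 0.26 (0.00677). Without either DP array Vpreb1 lay under the filter and was not tested.

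The summed intensity of 12 dendritic cell markers was 690.2 and 859.8 in DP cells, 729.6 and 674 in CD4intCD8+ cells and 743.6 and 909 in CD8SP cells, of which Cst3, a widely expressed protease inhibitor, made up 457 and 619, 456 and 458, and 452 and 603. Of the 12 genes 6 stayed under 30.8 on every array, among them Xcr1, Clec10a and Cd209a, which lay between 2.91 and 15.8. Of 4 tested, Ly75, an uptake receptor that other cells make too, rose in CD8SP against DP, where 11.5% of all tested genes rose. It read 30.0 and 28.5 in DP cells, 49.2 and 43.1 in CD4intCD8+ cells and 91.0 and 89.7 in CD8SP cells (1.45 ± 0.18, limma adjusted p = 0.000797). With the block Ly75 was also called in CD4intCD8+ against DP (0.56, adjusted p = 0.0446, and 0.0688 without it) and in CD8SP against CD4intCD8+ (0.89, 0.0321, and 0.113 without it). The 13 macrophage markers summed to 322 and 396 in DP cells, 346 and 506.5 in CD4intCD8+ cells and 313 and 396 in CD8SP cells, with 7 of them under 30.8 on every array, and the 12 thymic epithelial markers to 269 and 292, 294 and 316, and 297 and 303, with 9 of them under 30.8 on every array. For both lists limma called 0 tested genes (4 and 3 tested, 0 with an unadjusted p under 0.05) in CD8SP against DP and in CD4intCD8+ against DP. In CD4intCD8+ against DP the median of the 4 macrophage genes was 0.41, against 0.01 over all tested genes; 2 of them, Lyz1 and Lyz2, were called higher with the block (0.00755 and 0.0479), and 1 was called without CD4intCD8+ replicate 1.

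The summed intensity of 11 T cell markers moved the other way, with 24295 and 26233 in DP cells, 19092 and 15634 in CD4intCD8+ cells and 17113 and 15791 in CD8SP cells. Both DP arrays lay above all others. Of 10 tested, 7 fell in CD8SP against DP and 0 rose by limma, where 8.35% of all tested genes fell and 11.5% rose. Those that fell were Cd3d, Cd8a, Cd8b1, Thy1, Cd2, Cd5 and Rag1, the recombinase gene. An unadjusted p under 0.05 was found for 7, and 7 were called with the block, against 30% of all tested genes. There were 2 calls without DP replicate 2. The part of these shifts in the class II differences was not tested.

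On the arrays of replicate 2 at the later stages, where the I-A and I-E chain genes and Cd74 were higher than on replicate 1, some further transcripts were higher as well, named here after their values were seen. Lyz1, a lysozyme of myeloid cells, read 165 against 43.3 in CD4intCD8+ and 70.3 against 25.9 in CD8SP (replicate 2 against replicate 1). Irf8, a factor of dendritic and B cells, read 62.5 against 35.3 and 76.3 against 31.0. Ptcra, which encodes the pre-T alpha chain, read 119.9 against 42.9 and 111 against 37.9. Picked in this way, these genes do not show which cells gave the signals. Irf8 comes from the list of the interferon gamma path and Ptcra from that of T cell markers. Of the lists, 7 of 13 macrophage, 3 of 12 dendritic cell, 2 of 11 B cell and 4 of 12 thymic epithelial genes were higher on replicate 2 at both later stages. So were 3 of 11 interferon gamma, 3 of 11 T cell, 1 of 13 class I, 5 of 16 class II loading and 5 of 14 class II transcription genes. These counts include genes under the filter, among them 9 macrophage, 8 dendritic cell and 9 thymic epithelial genes. The share over all tested genes, 35.5%, covers only genes that passed it, so the bases differ. The part of other cells in the class II signals was not tested.

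**Figure D5:**
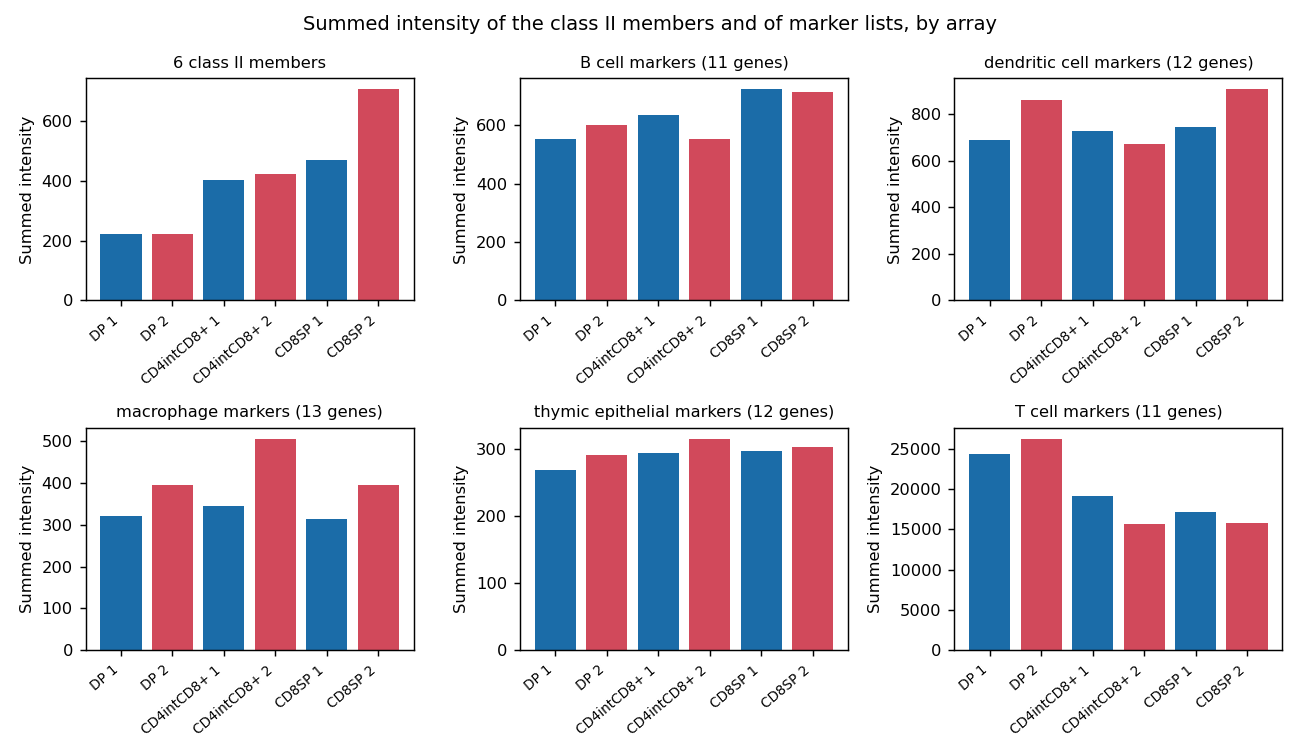
Summed linear intensity (vertical axis, from 0) of the 6 class II genes and of 5 marker lists on each array (horizontal axis; blue replicate 1, red replicate 2), with values below 0 counted as 0. The class II sum was 221 and 223 in DP cells, 403 and 423 in CD4intCD8+ cells and 471 and 707 in CD8SP cells, the B cell sum lay between 551 and 724, and the thymic epithelial sum stays between 269 and 316 on all arrays.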

How the data were processed

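The authors deposited 1 linear intensity per probe set and array, with 45101 rows; the sources used here do not give how background was subtracted or arrays scaled. Subtraction shows in the values, of which 3.60% lay below 0 over probe sets other than controls. Gene names came from the platform annotation, where 34945 probe sets had 1 symbol, 932 several and 9160 none; the last 2 kinds were left out. The members, gene lists, motifs and rule for named genes were chosen with earlier results of these data known. Per gene, the probe set with the highest mean was used (the leading one), as log2(intensity + 5.84) with values below 0 set to 0; 5.84 is the 10th percentile of positive values. Limma 3.58.1 (R 4.3.3, lmFit and eBayes with an intensity trend) was fitted on all 6 arrays with stage as the term and Benjamini-Hochberg adjustment over the 10916 genes at or above the 40th percentile; an adjusted p under 0.05 was called, and the fit was tested on simulated data. Named genes are the members, the 4 nearest genes to each, and of each list the called genes and up to 4 others; further names (Lyz1, Irf8, Ptcra, Prdm1, Ifng and low markers among them) were chosen after their values were seen. Arrays with the same replicate number shared deviations between stages (correlations across genes of 0.26, 0.21 and 0.30), and per the labels there were 2 separate experiments. The number was therefore taken to pair arrays in the differences within replicate number and in the alternative fit with the replicate block. The reported errors, adjusted p-values and calls, unless given as with the block, come from the fit with stage alone, which ignores this pairing. The number of arrays limits precision.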

Additional observations from a re-analysis of the deposited data

How the results depend on the processing

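Over 16 alternative settings, several of which cannot move a difference, 17 differences of the class II genes moved by over 1 SD, and those of Ciita changed sign in 7 cases. With the mean of all probe sets of a gene, 764 genes were called for CD4intCD8+ against DP (1277 as reported), 2 for CD8SP against CD4intCD8+ (13 as reported) and 1 of the class II loading genes at the first step (2 as reported). Without the intensity trend 801 were called at the first step. With the actin ratio as a covariate the counts were 407 at the first step and 34 at the second. The second step gave 8 with the 60th percentile filter and 8 with only the 4 arrays compared. With the replicate block the counts were 2562, 227 and, for CD8SP against DP, 3277 (2166 as reported), and 2 class II loading genes at the second step (0 as reported). Leaving out 1 array gave from 185 to 1400 calls at the first step, from 6 to 71 at the second and from 995 to 2352 for CD8SP against DP. For the class II loading genes it gave from 2 to 3, 0 and from 2 to 4 calls. Where this leaves 1 array at a stage, that array is assumed to vary like the others. The cause of these shifts was not tested. Of 3007 values of named list genes under alternatives, 2822 kept their side of the threshold, 130 lost a call and 55 gained one. Among values called as reported or under the alternative, 0 reversed direction, and the direction of uncalled values was not counted. Signals near the array medians limit what Ciita and the dim markers can show.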
